A study of Mus musculus with 20 samples.

Results

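The genes described here are 46 enzymes and regulators of sterol, fatty acid and phospholipid synthesis, of 21264 gene symbols on the arrays. They were taken by symbol under a rule that used no measured value, but the list was chosen with earlier results of these data known. All 46 had a feature (a probe group of the array). Acaca, Scap, Fdft1 and Idi1 had several features, which were averaged, and the other 42 had 1 each. The deposited file places 1 feature of Acaca and 1 of Idi1 on another chromosome than the RefSeq gene. By role they fall into 15 genes of the mevalonate and sterol steps, 5 regulators of the SREBP transcription factors, 9 genes of fatty acid synthesis and modification, 8 genes that make phosphatidic acid or turn it over, and 9 genes that build phospholipid head groups.

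The samples were primary cortical neurons from embryonic day 17 mice on a C57Bl6 background, kept 8 days in vitro and exposed to ultraviolet light at 254 nm, which joins RNA to the proteins that touch it. Each of 10 cultures, as the authors paired the arrays, gave a CLIP array and an Input array. CLIP arrays hold RNA brought down with an antibody to FMRP, and Input arrays hold total RNA. The 4 groups of 5 arrays were Fmr1 knockout (KO) CLIP, wild-type (WT) CLIP, KO Input and WT Input. FMRP, the fragile X protein encoded by Fmr1, binds mRNAs and restrains their translation, and since KO neurons lack it, the RNA in their CLIP arrays is the background of the precipitation.

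Neurons and the glia around them make their own cholesterol, because little of it crosses the blood-brain barrier. The mevalonate pathway builds isoprenoid units, squalene and lanosterol, and later enzymes trim lanosterol to cholesterol. When membrane sterol is low, the escort protein Scap carries the SREBP precursors out of the endoplasmic reticulum, the Insig proteins hold them back when sterol is high, and the released factors switch on the sterol and fatty acid genes together. Phosphatidic acid stands at the fork of membrane lipid synthesis: lipins turn it into diacylglycerol, the CDP-diacylglycerol synthases turn it into the precursor of phosphoinositides and cardiolipin, and diacylglycerol kinases, named in the title of the study, make it from diacylglycerol.

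Array medians lay between 5.30 and 5.44 on the log2 scale, and no pair of arrays was identical. Fmr1 averaged 3.92 ± 0.08 in KO CLIP and 6.49 ± 0.23 in WT CLIP, and 4.14 ± 0.16 in KO Input and 5.69 ± 0.20 in WT Input (log2 signal, SD, n = 5 each), and its KO and WT arrays did not overlap in either fraction. Neuronal markers (9 of 11 with a feature) had array means of 8.06 to 8.68 in KO Input and 8.13 to 8.70 in WT Input. Single ones ranged from Stmn2 (group means 11.55 in KO Input and 11.45 in WT Input) to Gad2 (6.04 and 5.92). The 10 astrocyte markers lay at 6.75 to 7.09 and 6.65 to 6.96, with Aldoc above 9 in all 10 Input arrays. The 9 markers of the oligodendrocyte lineage lay at 5.84 to 6.15 and 5.89 to 6.13, with Olig1 at group means of 8.70 and 8.71. The 9 microglial markers (4.50 to 4.95 and 4.49 to 4.83) and the 9 endothelial and meningeal markers (4.68 to 5.16 and 4.71 to 4.89) lay near the bottom of the scale. Markers of neurons, astrocytes and the oligodendrocyte lineage, and some markers of the other lists, were thus measured in the cultures. Fewer cells of a type and less RNA per cell cannot be told apart in such arrays. Nothing was known of a sample beyond its culture, so p-values measure the spread between cultures of a group.

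The first comparison set KO against WT within CLIP, the test for mRNAs held by FMRP. No lipid synthesis gene passed limma at adjusted p under 0.05 (0 of 46, where 26 of all genes, 0.122%, passed: 2 or 0.00941% higher and 24 or 0.113% lower in KO). Unadjusted limma p was under 0.05 for 3 genes above WT (2.29% of all genes were) and 1 below it (4.93% were), 4 in all, where 7.22% of all genes were. No member had all its KO arrays above or all below its WT arrays, which 0.292% and 1.38% of all genes did. The lowest limma p-values were those of Cds2, the CDP-diacylglycerol synthase of most tissues, and Acaca, acetyl-CoA carboxylase, which makes the malonyl-CoA from which fatty acids are built.

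Cds2 stood at 8.32, 7.44, 7.63, 7.47 and 7.87 in KO CLIP, against 7.47, 7.30, 6.94, 7.24 and 7.51 in WT CLIP (log2 signal of cultures 1 to 5). KO culture 1 was the highest array and the other KO arrays overlapped the WT range. The difference was 0.45 (95% interval 0.09 to 0.81; limma adjusted p = 0.518; exact permutation p = 0.0476, two-sided, over all splits of 5 against 5). It was 0.31 without KO CLIP 1. Acaca stood at 7.99, 8.04, 8.03, 7.09 and 7.85 in KO CLIP, against 8.51, 8.32, 7.92, 8.25 and 8.34 in WT CLIP. KO culture 4 was far below the rest, and WT culture 3 fell among the other KO arrays. The difference of Acaca was -0.47 (95% interval -0.85 to -0.09; limma adjusted p = 0.538; exact permutation p = 0.0317), and -0.29 without KO CLIP 4. Its 2 features gave -0.47 and -0.46; the deposited file places the first on chromosome 12 and the second on chromosome 11, where RefSeq has the gene. Neither gene differed as much in Input, where Cds2 gave -0.00 (-0.37 to 0.36) and Acaca 0.10 (-0.39 to 0.58).

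As a group the lipid synthesis genes lay slightly above WT in KO CLIP: 34 of 46 had a difference above 0 (73.9%), as did 43.0% of all genes, and their median was 0.09, or 0.11 above the median of all genes. Lpin1, a lipin, differed by 0.25 (0.03 to 0.47), and Hmgcs1, which makes HMG-CoA, by 0.31 (0.00 to 0.61), both at unadjusted limma p under 0.05 only. The remaining genes lay between -0.21 (Fasn, fatty acid synthase) and 0.37 (Sc5d, a late sterol desaturase). Neuronal markers lay further above WT, 8 of 9 of them, with a median difference of 0.26 and none past limma. Relative to all genes their deviation was 0.03 to 0.32 in the KO CLIP arrays and -0.17 to -0.06 in the WT CLIP arrays, and their part in the result was not tested. The group median was 0.03 above that of all genes without WT CLIP 3 and 0.19 without KO CLIP 4, with 0.07 without KO CLIP 2 or KO CLIP 3.

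**Figure D1:**
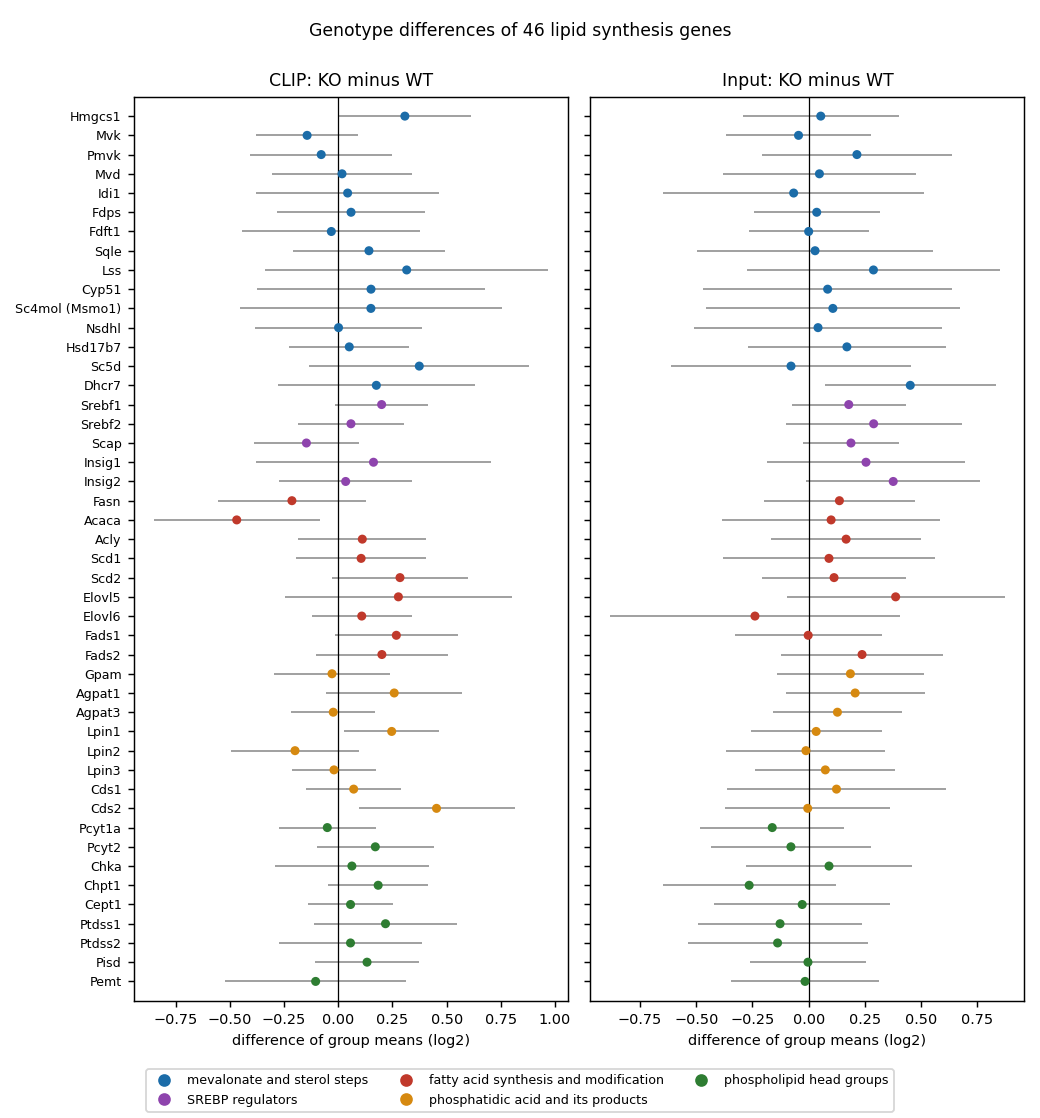
Difference of group means (log2, KO minus WT) of each of the 46 genes in CLIP (left) and Input (right), points coloured by role, with the 95% interval of limma as a line (n = 5 arrays per group). Most points lie within 0.3 of 0, and Acaca (-0.47) and Cds2 (0.45) in CLIP and Dhcr7 (0.45) in Input are the farthest from it.

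The second comparison set KO against WT in Input, the total RNA of the cultures. Again no member passed limma (0 of 46, where 1 gene of all, 0.0047%, passed, Fmr1 itself), and 1 member had an unadjusted limma p under 0.05, where 3.7% of all genes did (1.62% higher and 2.08% lower in KO). That gene was Dhcr7, which makes the last reduction before cholesterol. Its values were 8.94, 8.47, 8.64, 8.23 and 8.57 in KO Input, against 8.43, 8.00, 7.56, 8.25 and 8.36 in WT Input. KO cultures were higher on the whole, but KO culture 4 lay within the WT range. The difference was 0.45 (95% interval 0.07 to 0.83; limma adjusted p = 1.00; exact permutation p = 0.0397), the range without single arrays was 0.31 to 0.54, and the low end was reached without WT Input 3.

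All 5 SREBP regulators had a positive difference in Input, with a median of 0.25, where 53.6% of all genes had one. Scap was the single member whose genotypes did not overlap: 6.62, 6.56, 6.66, 6.56 and 6.70 in KO Input, against 6.43, 6.47, 6.45, 6.40 and 6.42 in WT Input. Every KO array was above every WT array, which 0.282% of all genes showed in that direction, but the step was small. It measured 0.19 (95% interval -0.03 to 0.40; limma adjusted p = 1.00; exact permutation p = 0.00794, and no split of 10 arrays can give a lower one). limma, which pools the spread over all genes, gave an interval that includes 0. Insig2, which retains SREBP precursors, stood at 5.02, 4.44, 4.42, 5.16 and 4.67 in KO Input, against 4.87, 4.33, 4.30, 4.24 and 4.10 in WT Input. These levels are near the bottom of the scale, the groups overlap, and the difference was 0.38 (-0.01 to 0.76; limma adjusted p = 1.00; exact permutation p = 0.111). Insig1 (0.25), Srebf2 (0.29), which encodes the sterol-directed SREBP, and Srebf1 (0.18), which encodes the lipid-directed ones, had intervals that include 0.

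In the other roles Input differences were small. The sterol steps had 11 of 15 above 0 (median 0.05), fatty acid genes 7 of 9 (median 0.11) and phosphatidic acid genes 6 of 8 (median 0.10), while 1 of the 9 head group genes, Chka, was above 0 (median -0.08). Over all 46 genes, 30 were above 0 (65.2%), with a median of 0.08. Relative to all genes this median was 0.07, and it turned to -0.03 without KO Input 1 or KO Input 3 and to -0.01 without WT Input 3. Leaving out KO Input 4 gave 0.18, KO Input 2 gave 0.13 and WT Input 1 gave 0.13. The sign of the group in Input thus rested on single cultures.

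The third comparison asked whether CLIP minus Input differed between KO and WT (KO minus WT, the interaction). No member passed limma (0 of 46, where 4 genes of all, 0.0188%, passed), and 2 had an unadjusted limma p under 0.05, 1 higher (1.44% of all genes were) and 1 lower (2.75% were), where 4.19% of all genes did in either direction. Scap was enriched less in KO by -0.34 (95% interval -0.63 to -0.04; limma adjusted p = 1.00). In CLIP it stood at 7.07, 7.06, 6.96, 6.71 and 6.67 in KO, against 7.26, 7.05, 7.11, 6.79 and 6.99 in WT, so that the genotypes overlapped there. The 2 features of Scap differed, with -0.55 for one and -0.12 for the other.

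Chpt1, which joins choline to diacylglycerol in the last step of phosphatidylcholine synthesis, was enriched more in KO by 0.45 (95% interval 0.00 to 0.90; limma adjusted p = 1.00). It stood at 5.16, 4.99, 5.16, 5.09 and 5.31 in KO CLIP, against 4.88, 4.63, 5.03, 5.13 and 5.13 in WT CLIP. In Input it stood at 4.84, 3.98, 4.84, 4.68 and 4.84 in KO, against 4.84, 4.80, 4.76, 5.33 and 4.77 in WT. KO Input 2 and WT Input 4 lay apart from their groups in opposite directions, and the interaction was 0.28 without the first and 0.34 without the second. The median interaction of the 46 genes was -0.01, or 0.02 above that of all genes.

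**Figure D2:**
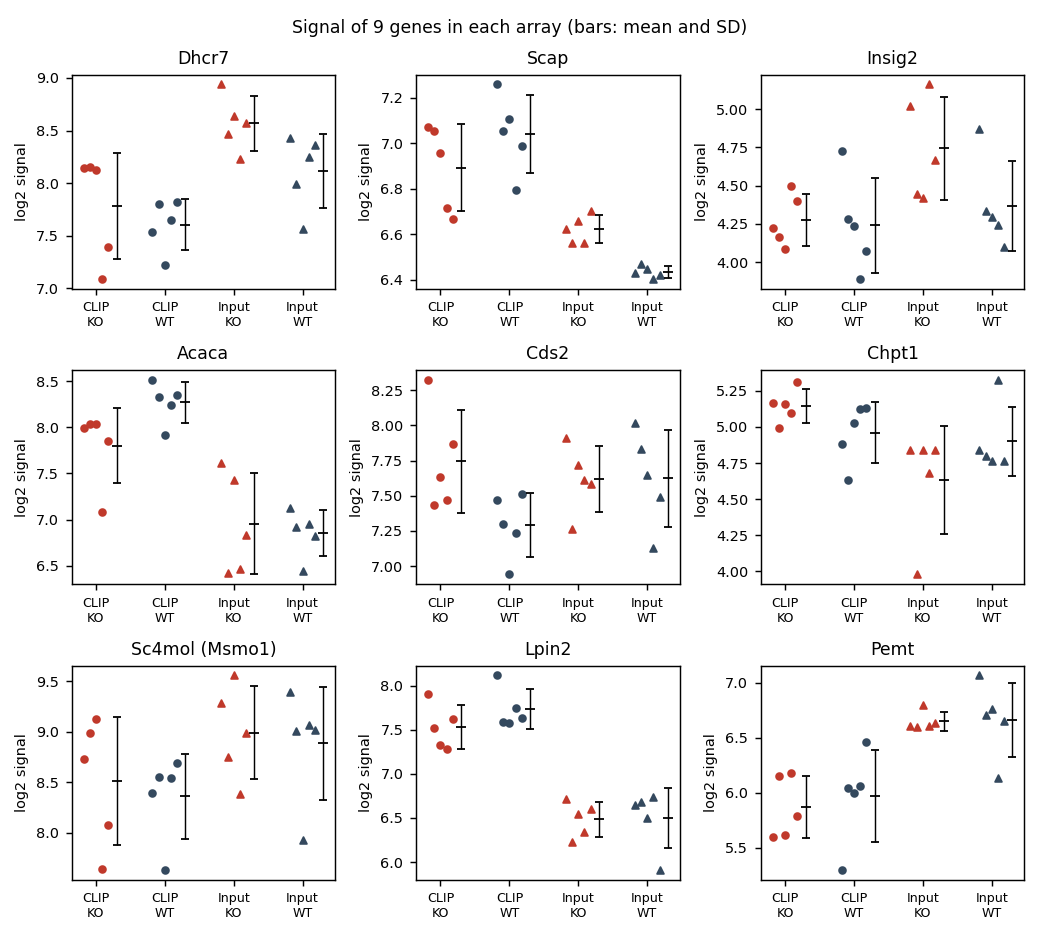
Log2 signal of 9 of the genes in each array, with circles for CLIP, triangles for Input, red for KO and dark blue for WT, and mean ± SD beside each group (n = 5); axes differ between genes. Scap is the gene whose KO and WT Input arrays do not overlap, and Lpin2 and Pemt show CLIP and Input apart in both genotypes.

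The fourth comparison set CLIP against Input within each genotype, which shows what share of the precipitated RNA a transcript takes compared with its share of total RNA. Of the 46 genes, 17 passed limma in KO (10 higher and 7 lower in CLIP), where 34.4% of all genes did (16.1% higher and 18.3% lower), and 15 passed in WT (10 higher and 5 lower), where 33.4% of all genes did (17.1% higher and 16.2% lower). On the deposited scale members thus passed about as often as all genes. Since FMRP is absent from KO neurons, the KO values describe the background of the precipitation. Of the 12 genes called higher in either genotype, 8 were called in both: Acaca, Agpat3, Chka, Lpin1, Lpin2, Lss, Scap and Scd1, which are 80% of the calls in each (over all genes 83.6% of the KO calls and 78.5% of the WT calls were shared). Of the 10 called lower in either, Fdps and Pemt were called in both, 28.6% of the KO calls and 40% of the WT calls (57.5% and 65.0% over all genes). The sign was the same in both genotypes for 38 of 46 genes (82.6%), and for 86.6% of all genes.

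CLIP and Input arrays of one number were taken to come from 1 culture, as the authors paired them. With the culture as a block, 10 genes were higher and 11 lower in KO, 45.7% of the members, where 37.9% of all genes passed (17.5% higher and 20.4% lower). In WT 11 were higher and 11 lower, 47.8% of the members, where 36.2% of all genes passed (18.3% higher and 17.8% lower). Scaling moved the balance as well. After quantile normalization 9 were higher and 10 lower in KO, 41.3% of the members, where 27.2% of all genes passed (14.2% higher and 12.9% lower). In WT 9 were higher and 13 lower, 47.8%, where 28.7% of all genes passed (14.8% higher and 13.9% lower). The share of members past the test was thus above that of all genes under both settings, unlike on the deposited scale. Among genes with a mean of at least 5 the share of members was below that of all such genes. There 15 of 43 members (34.9%) passed in KO, where 5157 of 11978 genes did. In WT 16 of 43 (37.2%) passed, where 5539 of 11978 genes did. The median of all genes in KO was -0.02 after quantile normalization, against -0.13 as deposited. The counts below are those of the deposited scale without the block, and the calls gained or lost under the block or after quantile normalization are named by role.

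Most sterol genes lay below 0. Of the 15 sterol steps, 13 were below 0 in KO (median -0.35, where all genes had -0.13) and 14 in WT (median -0.33, where all genes had -0.09). In KO 4 passed as lower, Dhcr7 (-0.79), Pmvk (-0.62), Fdps (-0.47) and Mvk (-0.41); Mvk and Pmvk phosphorylate mevalonate in turn, and Fdps makes farnesyl pyrophosphate. In WT 2 passed as lower, Fdps (-0.49) and Hmgcs1 (-0.40). With the culture as a block 7 were lower in each genotype: Idi1, Hsd17b7 and Sc4mol (now Msmo1) joined in KO, and Dhcr7, Idi1, Hsd17b7, Sc4mol and Sc5d in WT. Quantile normalization gave 7 in KO, with Idi1, Hsd17b7 and Mvd added, and 8 in WT, with Dhcr7, Mvk, Pmvk, Mvd, Idi1, Hsd17b7 and Sc5d added and Hmgcs1 lost (limma adjusted p = 0.11). Mvd, Fdft1, Sqle, Cyp51 and Nsdhl lay between -0.35 and 0.08 in both genotypes and did not pass on the deposited scale. Dhcr7 was lower in CLIP than in Input in every culture: 8.15, 8.16, 8.12, 7.09 and 7.39 in KO CLIP against the KO Input values given above, and 7.54, 7.80, 7.23, 7.65 and 7.82 in WT CLIP (WT difference -0.51, limma adjusted p = 0.056).

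Astrocyte markers were also lower in CLIP, 4 of 10 past limma in KO (median -0.32) and 5 of 10 in WT (median -0.34), where 18.3% and 16.2% of all genes were lower. Markers of other cells lay below 0 as well: 9 of 9 endothelial and meningeal markers in each genotype (2 past limma in KO and 1 in WT) and 8 of 9 microglial markers in each (3 and 0). Of the oligodendrocyte lineage 7 of 9 in KO and 6 of 9 in WT did so (2 and 2 past limma). Most genes lay below 0, however, since 35.8% of all genes in KO and 38.9% in WT lay above it. Most neuronal markers lay above 0, 7 of 9 in KO and 6 of 9 in WT, but their list was mixed. In KO 3 passed limma as higher and 1 as lower (median 0.31), and in WT 2 and 1 (median 0.04). Tubb3 was the lower one in both genotypes (-0.54 in KO and -0.81 in WT). The part of these cells in the sterol values was not tested.

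Lss, which closes the ring of lanosterol, was the exception among the sterol steps. It averaged 6.84 ± 0.65 in KO CLIP and 5.88 ± 0.33 in KO Input, and 6.52 ± 0.51 in WT CLIP and 5.60 ± 0.64 in WT Input (SD, n = 5 each). CLIP was above Input in 5 of 5 cultures of each genotype, and the differences were 0.95 ± 0.30 (SE, limma adjusted p = 0.0189) in KO and 0.92 ± 0.30 (limma adjusted p = 0.0217) in WT. Some calls rested on single arrays. Mvk (limma adjusted p = 0.0712) and Fdps (0.0637) were missed in KO without KO CLIP 5. Lss was missed without KO CLIP 1 or KO Input 4 in KO (limma adjusted p up to 0.0648) and without WT CLIP 1, WT Input 3 or WT Input 4 in WT (up to 0.0773). Hmgcs1 passed in WT only without WT CLIP 5 or WT Input 3 among the 10 refits (limma adjusted p up to 0.139 in the others), while Dhcr7 and Pmvk in KO and Fdps in WT passed in all 10.

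Among the SREBP regulators, Scap was higher in CLIP in WT (0.61 ± 0.10, SE, limma adjusted p = 5.36e-05, 5 of 5 cultures) and in KO (0.27 ± 0.10, limma adjusted p = 0.0399, 4 of 5 cultures). The KO call was lost with the culture as a block (limma adjusted p = 0.0543), with quantile normalization (0.684) and without KO CLIP 1, 2 or 3 or KO Input 2 or 4 (up to 0.11). Tested singly, the 2 features of Scap gave 0.84 and 0.37 in WT, both past limma. In KO they gave 0.29 (limma adjusted p = 0.0398) and 0.26 (0.0915). Insig2 was lower in KO CLIP (-0.47, limma adjusted p = 0.0355), at levels near the bottom of the scale, and missed without KO CLIP 1, 2 or 3 or KO Input 1 or 4 (limma adjusted p up to 0.112) and with quantile normalization (0.218). Srebf1, Srebf2 and Insig1 did not pass in either genotype on the deposited scale. Srebf1, at -0.20 in KO and -0.22 in WT, passed as lower in both after quantile normalization.

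Fatty acid genes divided. Acaca led those higher in CLIP, at 7.80 ± 0.41 in KO CLIP and 6.96 ± 0.55 in KO Input, and 8.27 ± 0.22 in WT CLIP and 6.86 ± 0.25 in WT Input (SD, n = 5 each). The differences were 0.84 ± 0.22 (SE, limma adjusted p = 0.00451) in KO and 1.41 ± 0.22 (2.15e-05) in WT, with 5 of 5 cultures above 0 in each. The feature placed on chromosome 12 gave 0.99 and 1.69 and that on chromosome 11 gave 0.70 and 1.14, each past limma when tested singly. Scd1, a stearoyl-CoA desaturase, followed at 0.64 and 0.63, Elovl6, which lengthens palmitate, at 0.91 in KO and 0.57 in WT, where limma adjusted p was 0.0783, and Fasn at 0.64 in WT and 0.29 in KO, where it was 0.169. Lower in CLIP were Elovl5, which lengthens polyunsaturated fatty acids, in KO (-0.67) and Scd2, the desaturase typical of brain, in WT (-0.55).

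The calls of Acaca and Elovl6 in KO and of Acaca, Fasn and Scd2 in WT passed in all 10 refits without single arrays. Scd1 was missed in KO without KO Input 4 (limma adjusted p = 0.0539) and in WT without WT CLIP 1 or WT Input 3 (up to 0.0569). Elovl5 was missed without KO CLIP 2, 4 or 5 or KO Input 1, 3 or 5 (limma adjusted p up to 0.132), also under median centring (0.0762), and Scd2 in WT after quantile normalization (0.523). With the culture as a block, Elovl6 also passed in WT (limma adjusted p = 0.0193), Elovl5 in WT (0.00769), Fads1, a front-end desaturase, in KO (0.34, 0.0228), and Scd2 in KO (-0.37, 0.0297). Quantile normalization also gave the calls of Fads1 in KO (limma adjusted p = 0.00846) and Elovl5 in WT (0.0078). Acly, which makes cytosolic acetyl-CoA, and Fads2 passed in neither genotype under either setting.

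On the deposited scale the genes of phosphatidic acid were higher in CLIP or did not pass. Lpin2 was the clearest of all 46, at 7.90, 7.52, 7.33, 7.28 and 7.62 in KO CLIP and 6.71, 6.22, 6.55, 6.34 and 6.60 in KO Input, and 8.12, 7.58, 7.58, 7.74 and 7.63 in WT CLIP and 6.64, 6.69, 6.50, 6.74 and 5.91 in WT Input. CLIP and Input did not overlap in either genotype. The differences were 1.05 ± 0.16 (SE, limma adjusted p = 2.25e-05) in KO and 1.23 ± 0.16 (2.05e-06) in WT, and their own difference was -0.19 (95% interval -0.64 to 0.27). Lpin1 followed with 0.76 in KO and 0.54 in WT, and Agpat3, which acylates lysophosphatidic acid, with 0.39 and 0.54. These 3 passed in all 10 refits of each genotype, but Agpat3 in KO was lost after quantile normalization (limma adjusted p = 0.123). Lpin3 (-0.14 and -0.04), near the bottom of the scale, did not pass. Gpam, the mitochondrial enzyme that starts glycerolipid synthesis, passed in WT (0.38, limma adjusted p = 0.0417). It did so without WT CLIP 3, WT Input 3 or WT Input 5 only, and was missed in the other 7 refits (limma adjusted p up to 0.115) and after quantile normalization (0.249). Cds1, Cds2 and Agpat1 lay between -0.33 and 0.13 and did not pass, but Cds2 was lower in WT after quantile normalization (-0.54, limma adjusted p = 0.0158).

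Of the head group genes, Chka, choline kinase alpha, was higher in CLIP by 0.60 ± 0.17 (SE, limma adjusted p = 0.0104) in KO and 0.63 ± 0.17 (0.00712) in WT. Chpt1 was higher in KO (0.51, limma adjusted p = 0.0135) and not past the test in WT (0.06, 0.781). Pemt, which methylates phosphatidylethanolamine to phosphatidylcholine, was lower, averaging 5.87 ± 0.28 in KO CLIP and 6.65 ± 0.09 in KO Input, and 5.97 ± 0.42 in WT CLIP and 6.67 ± 0.34 in WT Input (SD, n = 5 each). CLIP lay below Input in every culture, with differences of -1.18 to -0.42 in KO and -1.77 to -0.08 in WT and means of -0.78 ± 0.18 (SE, limma adjusted p = 0.00193) in KO and -0.69 ± 0.18 (0.0045) in WT. Ptdss1, a phosphatidylserine synthase, was lower in WT (-0.45, limma adjusted p = 0.0405) but missed without WT CLIP 1, 4 or 5 or WT Input 2 or 4 (up to 0.105). Pcyt1a, Pcyt2, Cept1, Ptdss2 and Pisd passed in neither genotype.

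**Figure D3:**
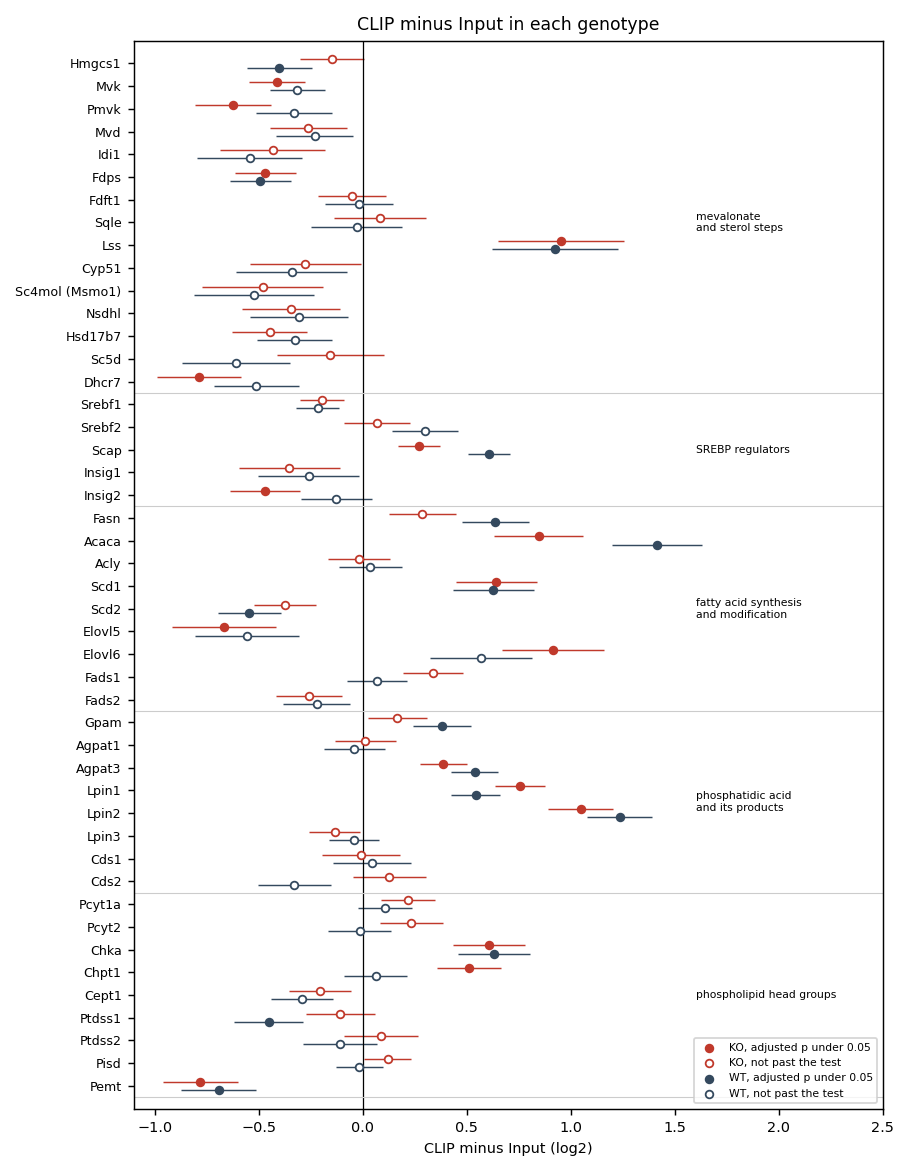
CLIP minus Input (log2) of each gene, KO in red above WT in dark blue, with bars of ± 1 SE from limma and filled points for adjusted p under 0.05; genes are in the order of the pathway and grouped by role. Sterol steps other than Lss lie left of 0, save Sqle in KO (0.08), while Acaca, Lpin1, Lpin2, Scd1 and Chka lie to the right of it in both genotypes.

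CLIP minus Input also followed the length of the gene on the chromosome. Over the 46 genes, Pearson's r with log10 of the RefSeq gene span was 0.41 in KO and 0.48 in WT. Over 18292 genes with a span it was 0.42 and 0.43, so that the lipid genes follow the relation seen in all genes. Genes are not independent replicates, and the lengths of the transcripts themselves were not used here.

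The sterol and fatty acid genes varied together from culture to culture. For each gene the deviations of the 20 arrays from their group means were correlated with those of every other gene, as a description, since CLIP and Input arrays share cultures. Between pairs of sterol genes r averaged 0.67 (105 pairs, from 0.11 to 0.96), between pairs of fatty acid genes 0.70 (36 pairs, from 0.38 to 0.89), and between genes of the 2 groups 0.65. The average was 0.10 among SREBP regulators, 0.05 among phosphatidic acid genes, 0.08 among head group genes, 0.01 over all genes and 0.04 over the 11978 genes with a mean of at least 5. It held within each fraction: 0.63 for sterol and 0.58 for fatty acid genes over the 10 CLIP arrays, and 0.74 and 0.81 over the 10 Input arrays, which are 10 separate cultures. Without the 2 arrays farthest from the median, KO CLIP 4 and WT CLIP 3, it was 0.55 and 0.34 in CLIP. There the SREBP regulators averaged 0.47 and the phosphatidic acid genes 0.25 (0.23 and 0.26 over all 10 CLIP arrays). Without these arrays the fatty acid genes thus did not stand apart in CLIP. Without WT Input 1 and WT Input 3 the sterol and fatty acid genes gave 0.63 and 0.82 in Input. The SREBP regulators and phosphatidic acid genes gave 0.07 and -0.05 there. Over all genes, the deviations of KO and WT Input arrays also correlated for numbers 1 and 2 (r = 0.57 and 0.36).

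Single regulators and enzymes joined this pattern or ran against it. Correlated with the sterol genes on average were Srebf2 (0.64), Insig1 (0.54), itself a known target of the SREBPs, and, outside the sterol and fatty acid groups, Chka (0.60), Cept1 (0.55), which adds the last head group in the endoplasmic reticulum, Agpat1 (0.54) and Cds1 (0.53). Scap (0.25) and Lpin2 (0.19) showed less of it. Srebf1 (-0.24 in CLIP and -0.33 in Input) and Lpin3 (-0.41 and -0.56) ran the other way in both fractions. The fractions differed for Lpin1, with 0.32 in CLIP and -0.45 in Input, and for Insig2, with -0.39 and 0.10, so that their pooled values (-0.12 each) describe neither.

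The same cultures were high or low for nearly all sterol genes. In Input, 15 of 15 sterol genes lay above the array's median deviation over all genes in KO 1 and 14 of 15 in KO 3, and 0 of 15 in KO 4, while 15 of 15 did so in WT 1 and 0 of 15 in WT 3. The median deviation of the sterol genes from their mean over the 10 Input arrays was 0.41, -0.06, 0.33, -0.41 and -0.00 in KO 1 to 5 and 0.47, -0.13, -0.42, -0.00 and 0.01 in WT 1 to 5. In CLIP it was 0.25, 0.36, 0.38, -0.39 and -0.27 in KO 1 to 5 and -0.06, 0.07, -0.52, 0.10 and 0.08 in WT 1 to 5. KO 4 and WT 3 were thus low in both fractions and KO 1 and KO 3 high in both, whereas KO 2 was high in CLIP only and WT 1 in Input only.

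Sc4mol, the C4-methyl sterol oxidase, is among the sterol genes that shifted most. It stood at 8.74, 8.99, 9.12, 7.64 and 8.08 in KO CLIP, against 8.39, 8.55, 7.63, 8.54 and 8.69 in WT CLIP. In Input it stood at 9.28, 8.75, 9.56, 8.38 and 8.99 in KO, against 9.40, 9.01, 7.93, 9.07 and 9.02 in WT. Within each group the cultures spanned more than 1 log2 unit, while the genotypes differed by 0.15 in CLIP and 0.11 in Input. Over the 15 sterol genes the median span was 0.84 in KO CLIP and 0.66 in WT CLIP, and 0.94 in KO Input and 0.87 in WT Input. The narrowest was 0.35 (Fdps in KO Input) and the widest 1.75 (Lss in KO CLIP).

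Neuronal markers moved with some of these cultures and not with others. Their median deviation in Input was 0.38, -0.46, 0.24, -0.01 and 0.15 in KO 1 to 5 and 0.29, -0.31, -0.05, -0.08 and -0.05 in WT 1 to 5. They were high in KO 1, KO 3 and WT 1 as the sterol genes were, but near 0 in KO 4 and WT 3, the low cultures of the sterol genes. Astrocyte markers in Input stood at 0.18, -0.15, 0.18, -0.07 and -0.07 in KO and -0.13, -0.13, 0.13, 0.05 and -0.02 in WT, above 0 in WT 3 and below it in WT 1. In KO 4 and WT 3 neither of these lists was as low as the sterol genes. Microglial and endothelial and meningeal markers ran opposite to the sterol genes in some Input cultures. In KO 4 all 9 of each lay above the median of all genes (0.21 and 0.32), and in KO 1 their median deviations were -0.15 and -0.18. In WT 3 they were 0.08 and 0.10 in Input and 0.25 and 0.19 in CLIP. The part of cell composition in the pattern was not tested further.

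**Figure D4:**
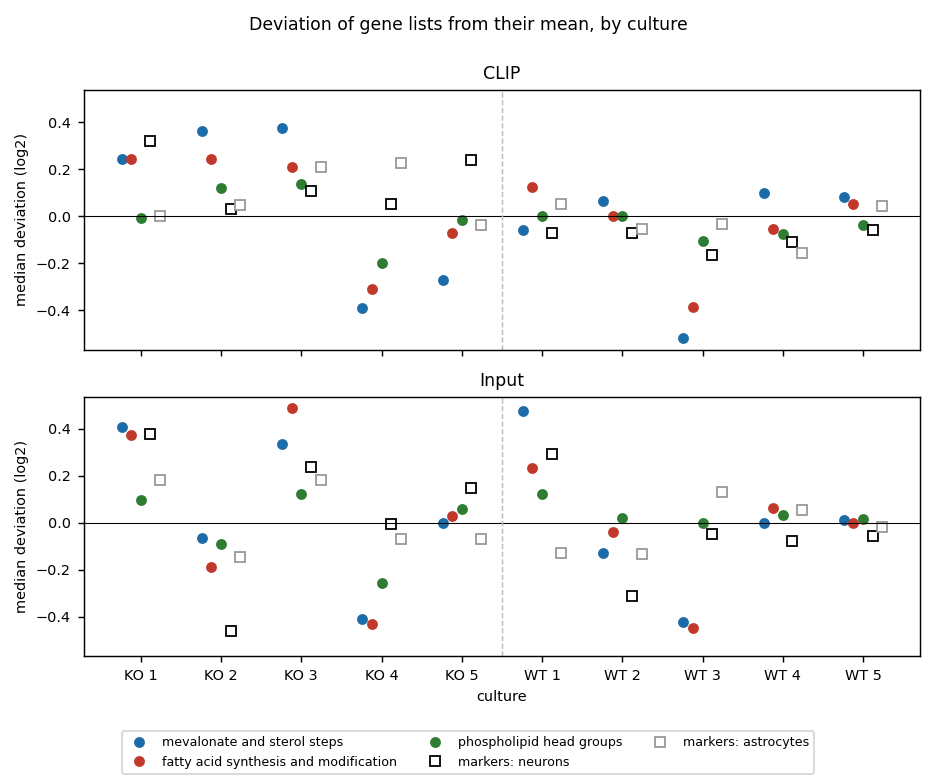
Median deviation (log2) of gene lists from their mean over the 10 arrays of a fraction, less that of all genes, in each culture, with CLIP above and Input below; filled circles are lipid gene groups and open squares are marker lists. Sterol and fatty acid genes are low in KO 4 and WT 3 in both panels, where the neuronal and astrocyte markers drawn here lie between -0.17 and 0.23.

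**Figure D5:**
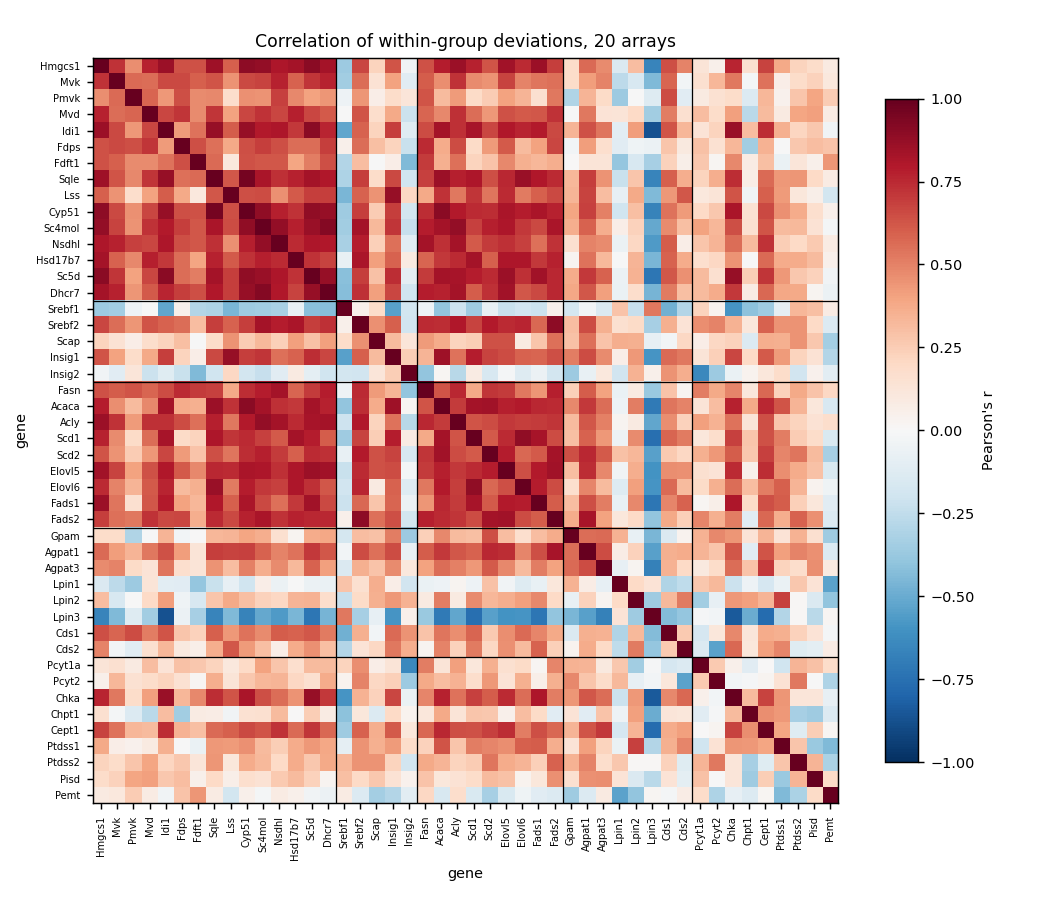
Pearson's r between the within-group deviations of each pair of the 46 genes over 20 arrays, in the order of the pathway, with black lines between roles. The sterol and fatty acid blocks and the block between them are red throughout (averages 0.67, 0.70 and 0.65), and the row of Lpin3 is blue against most of them.

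Since these genes moved together, their promoters are shown. RefSeq promoters of 300 bases (GRCm38.p6) were found for 38 of the 46 genes. Printed are the 4 sterol genes of the highest co-variation with a single promoter. Lpin1, whose r with the sterol genes was 0.32 in CLIP and -0.45 in Input, is printed beside them as 1 example only. The stretch printed for Lpin1 lies inside the RefSeq span of the gene (chr12:16535669-16653903). Letters are 5′ to 3′ on the strand of the gene, and capitals mark a CCAAT box, on either strand (CCAAT or ATTGG), or the sterol regulatory element TCACNCCAC, to which SREBPs bind. CCAAT boxes bind NF-Y, which is known to act beside the SREBPs. Hmgcs1 lies at chr13:119690101-119690400, plus strand, Sc4mol at chr8:64733529-64733828, minus strand, Cyp51, the lanosterol demethylase, at chr5:4104648-4104947, minus strand, Sc5d at chr9:42264251-42264550, minus strand, and Lpin1 at chr12:16610917-16611216, minus strand.
Hmgcs1: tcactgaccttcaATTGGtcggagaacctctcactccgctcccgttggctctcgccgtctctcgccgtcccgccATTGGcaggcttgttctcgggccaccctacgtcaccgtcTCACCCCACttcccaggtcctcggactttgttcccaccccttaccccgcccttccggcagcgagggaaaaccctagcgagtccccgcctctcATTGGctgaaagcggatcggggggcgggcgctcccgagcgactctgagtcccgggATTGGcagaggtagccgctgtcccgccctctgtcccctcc
Sc4mol: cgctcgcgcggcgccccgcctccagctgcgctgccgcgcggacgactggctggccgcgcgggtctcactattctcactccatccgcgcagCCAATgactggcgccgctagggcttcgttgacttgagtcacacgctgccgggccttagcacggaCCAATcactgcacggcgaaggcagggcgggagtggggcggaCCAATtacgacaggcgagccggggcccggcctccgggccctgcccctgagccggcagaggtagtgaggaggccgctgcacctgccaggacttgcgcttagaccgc
Cyp51: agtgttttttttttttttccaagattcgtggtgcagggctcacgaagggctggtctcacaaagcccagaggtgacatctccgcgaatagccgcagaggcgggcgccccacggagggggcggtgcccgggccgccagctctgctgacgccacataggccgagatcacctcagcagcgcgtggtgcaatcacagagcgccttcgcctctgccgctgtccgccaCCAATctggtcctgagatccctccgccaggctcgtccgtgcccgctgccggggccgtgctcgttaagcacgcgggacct
Sc5d: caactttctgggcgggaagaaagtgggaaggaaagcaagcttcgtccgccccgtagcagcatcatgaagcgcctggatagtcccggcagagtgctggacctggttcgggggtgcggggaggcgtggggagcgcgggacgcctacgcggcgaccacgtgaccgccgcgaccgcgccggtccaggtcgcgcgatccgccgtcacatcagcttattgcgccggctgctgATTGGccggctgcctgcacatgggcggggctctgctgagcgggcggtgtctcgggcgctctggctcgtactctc
Lpin1: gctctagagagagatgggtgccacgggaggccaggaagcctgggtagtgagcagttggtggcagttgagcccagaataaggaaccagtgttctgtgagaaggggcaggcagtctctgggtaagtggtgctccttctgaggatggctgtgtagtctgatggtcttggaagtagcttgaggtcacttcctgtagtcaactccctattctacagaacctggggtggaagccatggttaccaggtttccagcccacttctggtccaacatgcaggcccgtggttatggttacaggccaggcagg

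A CCAAT box was present in at least 1 promoter of 12 of the 12 sterol genes matched, of 4 of 5 SREBP regulators, 3 of 6 fatty acid genes, 4 of 8 phosphatidic acid genes and 5 of 7 head group genes. Of 27025 RefSeq genes 41.1% had one, and of 32851 promoters 37.4%. Hmgcs1 had 4 and Sc4mol 3 in the sequences above. Among genes whose pooled r with the sterol genes was below 0, Srebf1 (-0.28) and Insig2 (-0.12) had a CCAAT box in a promoter. Lpin1 (-0.12) and Lpin3 (-0.49) had none. The sterol regulatory element as spelled here was found in 2 of the 38 members matched (5.26%), Hmgcs1 and Pcyt1a. Hmgcs1 was thus 1 of 12 sterol genes with it. The product of Pcyt1a activates phosphocholine for phosphatidylcholine synthesis. Of all RefSeq genes 1.44% had the element, and of all promoters 1.24%. These are matches of letters, found in genes whose number of promoters differs, and binding was not measured.

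A list of 90 symbols of further genes of the same pathways, with old and new names of some, gave 82 genes with a feature. None of the 82 passed limma in the genotype comparison of CLIP, in that of Input or in the interaction. Unadjusted limma p was under 0.05 for 10, 4 and 2 of them, where 7.22%, 3.7% and 4.19% of all genes were. The lowest p-values in CLIP were those of Ptplad1 (now Hacd3, 0.38), a dehydratase of very long fatty acids, Soat1 (0.51), which esterifies cholesterol for storage, Pgs1 (-0.34), which starts cardiolipin synthesis, and Acsl5 (-0.35), an acyl-CoA synthetase. In Input they were those of the elongase Elovl1 (0.45), the dehydratase Ptpla (now Hacd1, -0.34), Lpcat2 (0.31), which acylates lysophosphatidylcholine, and Npc1 (0.36), the lysosomal cholesterol exporter. In the interaction Ptpla (0.50), Soat1 (0.61), Ptplad1 (0.35) and Pgs1 (-0.34) came first.

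CLIP minus Input called 14 of the 82 higher and 10 lower in KO, and 14 higher and 11 lower in WT, where 16.1% and 18.3% of all genes were in KO and 17.1% and 16.2% in WT. Lrp1, an endocytic receptor for lipoproteins, was higher by 1.39 ± 0.18 in KO (SE, limma adjusted p = 4.67e-06) and 1.69 ± 0.18 in WT (2.77e-07). Chkb, choline kinase beta, was higher by 0.83 in KO and Acsl1, an acyl-CoA synthetase, by 0.81 in WT. Ptpmt1, a phosphatase of cardiolipin synthesis, was lower by -1.04 in KO and -0.85 in WT, Ppap2b (now Plpp3), a lipid phosphatase, by -0.94 in KO, and Ptpla by -0.88 in WT. The mean r between deviations of these 82 genes was 0.11, against 0.67 among the sterol genes of the list.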

How the data were processed

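RNA of 20 samples was measured on Affymetrix microarrays. The deposited values are log2 signals made by the authors with RMA in Expression Console 1.1, per the submitters' processing notes; per the labels' protocols the RNA was amplified with NuGEN kits and labelled with biotin. No source used here gives the genome build of the array, and background flags were not used here. The precision is limited by the number of arrays.

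Features of a symbol were averaged, which gave 21264 genes from 24551 features; 1 feature with no symbol and 7 foot lines were left out, and symbols were kept as deposited. limma 3.58.1 (R 4.3.3; lmFit and eBayes) was run over all genes with Benjamini-Hochberg adjustment: on the 10 arrays of a fraction for genotype, and on all 20 for CLIP minus Input and its difference between genotypes. Exact permutation tests covered all splits of 5 against 5 (smallest two-sided p 0.00794). Tables and figures were made in Python 3.11.15.

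The members and lists were chosen with earlier results of these data known. Every array is given for members past limma between genotypes or in the interaction, for those whose genotypes do not overlap, and for the 2 of lowest p in each such comparison. In CLIP minus Input up to 4 called members per role and direction are named, and of the other genes of the pathways the 4 of lowest p per comparison. Arrays of Sc4mol and Lpin2, and other members named, were chosen after their values were seen. Same-numbered CLIP and Input arrays of a genotype were taken to come from 1 culture. The basis is the deposited ratio columns, which equal the difference of the same-numbered arrays. Correlations of the deviations of such arrays were -0.14 to 0.47 in KO and 0.05 to 0.26 in WT. The CLIP array matched the Input array of its own number best only for KO 1, 3, 4 and 5 and WT 1 and 2.

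On simulated data of 21264 genes, 66 or 67 genes each were changed by 0.5, 1 and 2 log2 units. For genotype limma recovered 17.9%, 91% and 100% of them in CLIP and 31.3%, 82.1% and 98.5% in Input. For the interaction it recovered 5.97%, 62.7% and 98.5%. The simulated spread of a gene was the same in all 4 groups, so the rates do not compare CLIP with Input. It was also independent between genes, unlike the shared shifts of the sterol genes. Alternatives were scaling, filters on low values, the summary of features, a variance trend, blocks and leaving out single arrays.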

Additional observations from a re-analysis of the deposited data

Results flagged for a closer look

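In 7 of 48 groups of 5 arrays examined, the lowest or highest array stood apart by more than 0.71 of the range of its group. For groups picked without regard to their values, chance flags about 1 in 20. The single genes examined were picked by their values in these arrays, and the gene lists overlap, so the count cannot be set against that rate. KO CLIP 4 was the lowest for Acaca (7.09, gap of 0.796 of the range). KO Input 2 was the lowest for Chpt1 (3.98, gap of 0.812), and WT Input 4 the highest (5.33, gap of 0.864). Of the median deviations of gene lists, WT CLIP 3 was the lowest for all 46 genes (-0.33, gap of 0.735) and for the sterol steps (-0.52, gap of 0.745). KO CLIP 4 was the lowest for the phosphatidic acid genes (-0.09, gap of 0.729), and WT Input 1 the highest for the head group genes (0.12, gap of 0.72). Within its group, WT CLIP 3 was the lowest array for 30 of the 46 genes (65.2%) and for 18.9% of all genes. KO CLIP 4 was the lowest for 24 of the 46 (52.2%) and for 21.2% of all genes. The same arrays were the highest of their groups for 30.5% and 37.5% of all genes. The causes were not tested.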

How the results depend on the processing

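The count of members called stayed at 0 for both genotype comparisons and the interaction under every alternative run. For CLIP minus Input it was 15 to 21 in KO and 13 to 22 in WT under other settings, and 14 to 17 and 10 to 17 without single arrays (10 without WT CLIP 1). The share of calls that were higher in CLIP was 58.8% in KO and 66.7% in WT as deposited, 47.4% and 40.9% after quantile normalization, and 47.6% and 50% with the culture as a block. Without single arrays the median of the 46 genes relative to all genes ran from 0.03 to 0.19 for CLIP KO minus WT and from -0.03 to 0.18 for Input. It ran from 0.00 to 0.16 for CLIP minus Input in KO, from -0.05 to 0.03 in WT, and from -0.09 to 0.11 for the interaction. Quantile normalization gave -0.05 in KO and -0.15 in WT. No label links KO and WT cultures beyond their number. For numbers 1 and 2 the KO array matched the WT array of its own number best in both fractions. Correlations were 0.57 and 0.36 in Input and 0.43 and 0.20 in CLIP. For numbers 3 to 5 they were below 0 (down to -0.24 in Input and -0.20 in CLIP). What numbers 1 and 2 shared was not tested. With the number as a replicate block 0 members passed in either genotype comparison. Over all genes, 26 passed for CLIP KO minus WT as deposited, 6 after median centring, 16 after quantile normalization, 11 with a variance trend and 4 with the block; the cause was not tested. Genes near the bottom of the scale, such as Insig2 and Lpin3, are the least well measured, and changes of 0.5 log2 units were mostly missed on simulated data.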
